A study of Homo sapiens with 21 samples.

Results

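The comparison concerned human islet cells labelled as lacking PDX1 that received a virus carrying ISL1, set against cells of the same genotype that received the control virus. Its 5 libraries were chosen by name from the 21 of the series: 2 labelled PDX1-/- with ISL1 and 3 labelled PDX1-/- with the control. All came from H1, a human embryonic stem cell line, differentiated in culture towards pancreatic islets. A lentivirus carrying either ISL1-IRES2-BFP (ISL1 joined to a blue fluorescent protein) or BFP alone was added on day 11, and BFP-positive cells were sorted on day 18, so control cells carried a virus too. The labels describe the replicates as biological, but do not say whether the PDX1-/- line is 1 clone or which mutation it carries. The 2 ISL1 libraries are called replicate 2 and replicate 4 after their library names; their titles number them 1 and 2. Wild-type (WT) cells with each virus (2 libraries each), and ISL1-/- and PAX6-/- cells with each virus (3 libraries each), served for comparison only.

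ISL1 is a LIM-homeodomain transcription factor made in all islet endocrine cells after they are specified, where it takes part in their maturation and in hormone gene expression. PDX1 is a homeodomain factor of the early pancreas and of beta cells, where it binds the insulin promoter. Both recognise DNA with a TAAT core, and loss of PDX1 in developing pancreas is known to cost beta cells in particular.

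The 5 libraries held between 46.54 and 58.38 M counts (M, 1000000), within the 36.81 to 60.2 M of the whole series. Mitochondrially encoded genes took 1.386% to 1.841% of counts in the BFP libraries and 1.544% in replicate 2, but 3.843% in replicate 4. The endocrine secretory protein gene CHGA stood at 43300 to 48900 CPM (counts scaled to 1000000 per TMM-adjusted library total) in the BFP libraries, 24200 in replicate 2 and 22900 in replicate 4, so endocrine cells were present in each. Neither targeted gene checks a label here. PDX1 stood at 103, 116 and 113 CPM in the BFP libraries, 138 in replicate 2 and 80.5 in replicate 4, against 80 to 102 in WT. ISL1 stood at 153, 173 and 132 CPM in the BFP libraries, 138 in replicate 2 and 313 in replicate 4, so the gene's count in replicate 2 lay within the controls' range although the label names the ISL1 virus. WT cells held 306 and 519 CPM of ISL1 with BFP and 361 and 337 with the ISL1 virus.

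Replicate 2 and replicate 4 did not resemble each other, and replicate 4 lay nearer to the WT libraries than to the PDX1-/- BFP libraries. To measure this, the root-mean-square difference in log2 CPM over all 25884 genes tested was taken between libraries. BFP libraries differed from each other by 0.60 to 0.64, and replicate 2 lay 0.84 to 0.91 from them. Replicate 4 lay 1.49 to 1.63 from the PDX1-/- BFP libraries and 1.54 from replicate 2, but 1.18 to 1.35 from the WT libraries. The library nearest to replicate 4 was the third PAX6-/- ISL1 library, at 1.15, in which mitochondrially encoded genes took 3.165% of counts. Replicate 4 was thus far from every library, and less far from WT than from its own group. Replicate 2 was nearest to a PAX6-/- library with the ISL1 virus, at 0.74, and it lay 0.91 to 1.04 from WT.

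**Figure D1:**
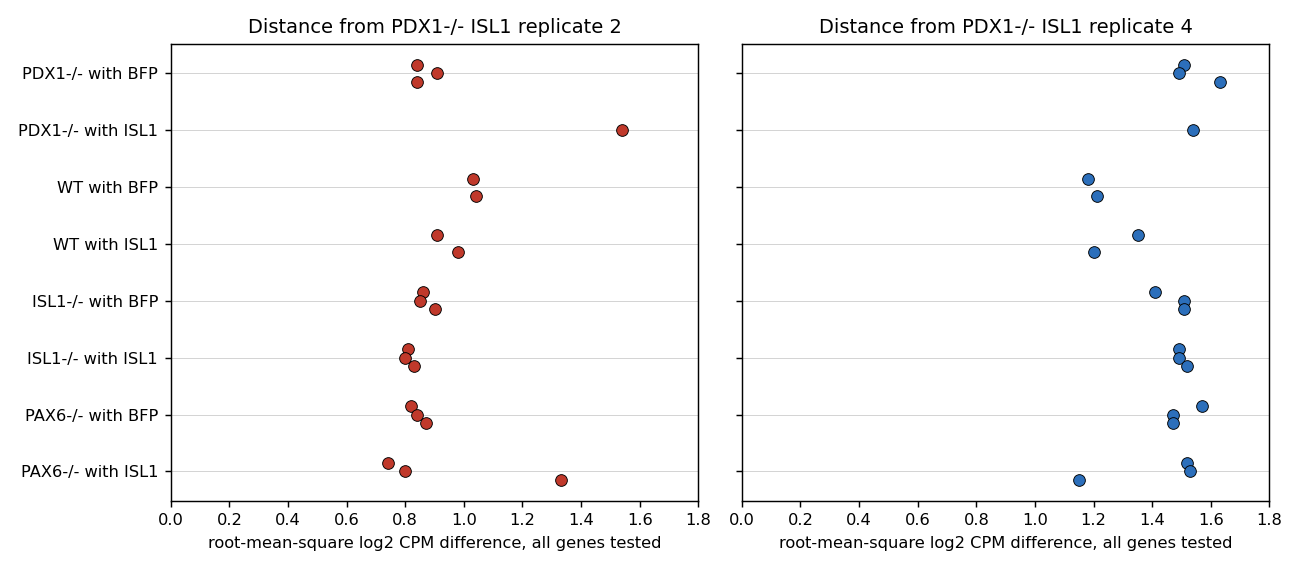
Distance of PDX1-/- ISL1 replicate 2 (left) and replicate 4 (right) from each other library, by group on the vertical axis; the horizontal axis is the root-mean-square difference in log2 CPM over all genes tested, and each point is 1 library. Replicate 2 lies 0.84 to 0.91 from the PDX1-/- BFP libraries, whereas replicate 4 lies 1.49 to 1.63 from them and 1.18 to 1.35 from the WT libraries.

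Replicate 4 was also read at genes that were off in PDX1-/- BFP cells and on in WT cells. With off meaning at most 3 counts in each of the 3 BFP libraries, and on meaning at least 1 CPM in all WT libraries, 4 genes qualified: LINC02864, UCN3, NLRP2 and TRIM61. All 4 were on in replicate 4 and none reached 1 CPM in replicate 2. LINC02864, a long noncoding RNA gene (ENSG00000263711.6, chr18:73151241-73264480, minus strand, GRCh38), had 1, 0 and 0 counts in the BFP libraries, 0 in replicate 2 and 842 in replicate 4. The WT libraries held 783 to 1049 counts of it, and the ISL1-/- and PAX6-/- libraries 0 to 5. At 25 CPM in replicate 4, LINC02864 was at least 381-fold higher than 0.0656 CPM, the highest level that 3 counts make in any BFP library and the floor used here. UCN3, a peptide hormone gene of mature beta cells, had 1, 0 and 0 counts in the BFP libraries, 2 in replicate 2 and 293 in replicate 4, which is at least 132-fold above the floor. NLRP2 had 52 counts in replicate 4 and 3 in replicate 2, and TRIM61 had 94 and 7. These genes do not all mark WT in particular: in the ISL1-/- libraries TRIM61 had 177 to 260 counts and UCN3 111 to 156. Whether the genotype, the differentiation or the identity of the sample differed in replicate 4 was not tested, and each value below is given for the 2 libraries separately.

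The insulin gene separated the 2 libraries. INS, the insulin gene, stood at 186, 163 and 87.5 CPM in the BFP libraries and at 164 in replicate 2, but at 25600 in replicate 4. Replicate 2 lay within the controls: its log2 fold change, the difference from the BFP libraries on a log2 scale, was 0.17 (SE 0.53, edgeR adjusted p = 0.94). At INS replicate 4 lay above the 5650 to 8380 CPM of the WT libraries. It also lay above all WT libraries at the other hormone genes named below. WT held 31200 to 51300 CPM of GCG and 92.7 to 159 of SST. At GHRL replicate 4 held 276 CPM against 74.5 to 129 in WT, and at PPY 7.26 against 1.47 to 3.92. Unlike INS, these genes were not called against WT ISL1 cells. GCG, the glucagon gene of alpha cells, stood at 15000, 19600 and 16300 CPM in the BFP libraries, 11700 in replicate 2 and 106000 in replicate 4. Replicate 2 was below all 3 controls, by a fitted -0.54 on the log2 scale (SE 1.03, adjusted p = 0.894), while GCG rose in replicate 4 by 2.65 (SE 0.91, adjusted p = 0.026), a call lost without BFP library 1 or 3 (adjusted p up to 0.0635). SST, the somatostatin gene of delta cells, stood at 26.3, 26.2 and 7.02 CPM in the BFP libraries, 115 in replicate 2 and 343 in replicate 4. Both libraries lay above every control. The log2 fold change of SST was 2.53 in replicate 2 (SE 0.92, adjusted p = 0.185), which missed the threshold of 0.05, and 4.11 in replicate 4 (SE 0.92, adjusted p = 0.00204). Replicate 2 passed for SST under 4 other settings, with adjusted p from 0.00112 to 0.0247. GHRL and PPY, the genes of ghrelin and pancreatic polypeptide, passed in neither library, although in replicate 4 PPY passed under 5 other settings and GHRL under 3 (adjusted p down to 0.000311 and 0.00138). Tested directly between the 2 libraries, INS was 7.29 higher on the log2 scale in replicate 4 (adjusted p = 0.000165), while GCG (0.0732), SST (0.342), GHRL (0.711) and PPY (0.158) missed the threshold. With both libraries fitted as 1 group, INS stood 6.47 higher on the log2 scale (SE 1.11, adjusted p = 0.00192), a value carried by replicate 4. In bulk samples, more cells of a type and more RNA per cell cannot be told apart.

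Upstream sequences are shown for INS and SST, islet hormone genes called higher in replicate 4, and for SLC2A2, the glucose transporter gene of beta cells and the single beta cell gene that rose in replicate 2. Each run is the 250 bases before the RefSeq start (GRCh38.p14), read 5′ to 3′ on the gene's strand, with TAAT or its reverse complement ATTA in capitals. INS lies at chr11:2161210-2161459, SST at chr3:187670395-187670644 and SLC2A2 at chr3:171026721-171026970, all on the minus strand.
INS: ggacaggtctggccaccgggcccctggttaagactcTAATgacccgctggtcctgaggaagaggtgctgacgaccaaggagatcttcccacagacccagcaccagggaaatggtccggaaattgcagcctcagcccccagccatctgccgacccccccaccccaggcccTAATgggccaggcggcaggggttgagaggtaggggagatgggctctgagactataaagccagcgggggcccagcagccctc
SST: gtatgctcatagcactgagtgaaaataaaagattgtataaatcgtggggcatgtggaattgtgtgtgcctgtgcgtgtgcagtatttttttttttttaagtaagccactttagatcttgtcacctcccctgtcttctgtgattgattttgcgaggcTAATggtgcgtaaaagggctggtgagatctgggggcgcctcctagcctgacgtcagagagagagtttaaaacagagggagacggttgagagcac
SLC2A2: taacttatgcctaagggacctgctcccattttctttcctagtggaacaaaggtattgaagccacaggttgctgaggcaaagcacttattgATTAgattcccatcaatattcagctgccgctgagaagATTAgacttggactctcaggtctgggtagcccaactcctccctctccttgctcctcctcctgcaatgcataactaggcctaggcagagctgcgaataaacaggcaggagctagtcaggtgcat
The INS window held 2 matches, SST 1 and SLC2A2 2, and the window of NKX6-1, the single beta cell gene that fell in replicate 2, held 0. Such short matches are frequent: 48.2% of all 27305 windows held at least 1 on either strand, as did 36.3% of the windows of genes tested. Among genes called in replicate 2, 44.4% of the windows of those higher and 42.6% of those lower held a match; in replicate 4 the shares were 38.4% and 32.1%. A match is a string of letters and not a shown binding site.

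**Figure D2:**
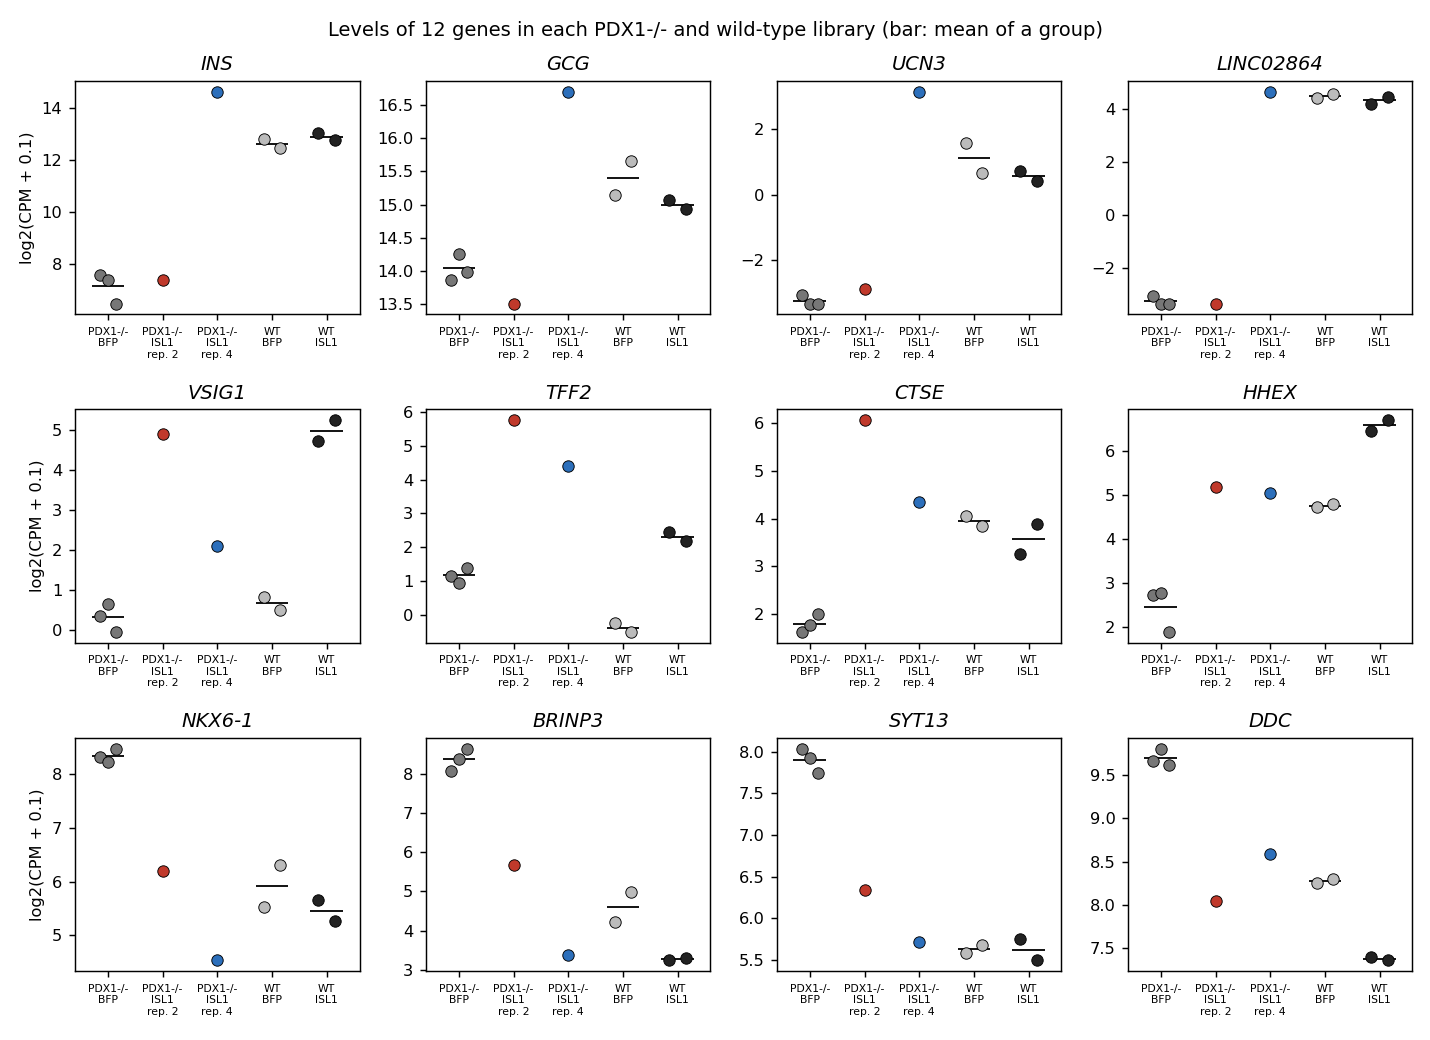
Level of 12 genes, as log2(CPM + 0.1) on the vertical axis, in each PDX1-/- and WT library; each point is 1 library and bars are group means. INS, UCN3 and LINC02864 lie with the PDX1-/- BFP libraries in replicate 2 and with WT or above in replicate 4, while NKX6-1, BRINP3, SYT13 and DDC lie below all BFP libraries in both.

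In replicate 2, 6 genes of stomach and gut epithelium rose, and the enterochromaffin genes DDC and LMX1A and the exocytosis gene SYT13 fell. Of 25884 genes tested with edgeR, 674 were called in replicate 2 at a Benjamini-Hochberg adjusted p under 0.05: 526 higher (2.03%) and 148 lower (0.572%). The excess of higher calls depended on the method: 78% of calls were higher here, and 58.3% of 1255 calls with DESeq2. The share was 58% of 2076 calls when only replicate 2 and the 3 PDX1-/- BFP libraries entered. Replicate 2 is a single library whose spread is assumed to be that of the other groups, and p-values measure the spread between these libraries only. For replicate 4 the same test called 5887 genes higher (22.7%) and 5658 lower (21.9%). With both libraries as 1 group, 2120 were higher (8.19%) and 1120 lower (4.33%), a count that fell to 665 in total without replicate 4 and reached 11519 without replicate 2. Both libraries are compared with the same 3 BFP libraries, so their values are set side by side and are not independent.

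The largest rises of replicate 2, among called genes above all 3 controls and at 10 CPM or more, were CD177, FER1L6, CD8B2, VSIG1, TFF2, PRSS2, FRZB and CTSE. CTSE, cathepsin E, an aspartic protease abundant in stomach mucosa (ENSG00000196188.12, chr1:206008535-206023909), stood at 2.99, 3.31 and 3.89 CPM in the BFP libraries, 66.7 in replicate 2 and 20.2 in replicate 4. Its log2 fold change was 4.3 in replicate 2 (SE 0.42, adjusted p = 2.4e-05), and both libraries lay above the controls. VSIG1, a junctional protein of gastric epithelium (ENSG00000101842.14, chrX:108044970-108079184), stood at 1.18, 1.48 and 0.874 CPM in the BFP libraries, 29.8 in replicate 2 and 4.24 in replicate 4. It was high in WT cells with ISL1 (26.1 and 37.8 CPM) and not in WT cells with BFP (1.69 and 1.33), so replicate 2 matched the WT ISL1 range and replicate 4 did not. The trypsinogen gene PRSS2 rose from 33.4, 40.2 and 74.6 CPM to 1000 in replicate 2, with 260 in replicate 4. Its reads are uncertain, because PRSS1 and PRSS3 are near copies, and CD8B2 likewise has a close copy in CD8B. FRZB, a secreted Wnt antagonist, stood at 22.7, 8.27 and 10.1 CPM in the BFP libraries, 276 in replicate 2 and 181 in replicate 4.

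The largest falls of replicate 2, among called genes below all 3 controls whose BFP mean was 10 CPM or more, were BRINP3-DT, BRINP3, OSR2, ENSG00000291250, ARPP21, NKX3-2, INHBA and IL22RA1. NKX3-2, a homeobox gene of foregut mesenchyme (ENSG00000109705.8, chr4:13540830-13544508), stood at 45.1, 61.4 and 80.4 CPM in the BFP libraries, 10.9 in replicate 2 and 0.948 in replicate 4. Both libraries lay below every control, with log2 fold changes of -2.51 (SE 0.55, adjusted p = 0.0199) and -6.03 (SE 0.71, adjusted p = 1.26e-05). BRINP3 stood at 269, 332 and 398 CPM in the BFP libraries, 51 in replicate 2 and 10.3 in replicate 4. INHBA, which encodes a subunit of activin A, behaved otherwise. It stood at 28.1, 34.1 and 29.9 CPM in the BFP libraries, 5.75 in replicate 2 and 29 in replicate 4, so replicate 4 lay within the control range. OSR2, a zinc finger factor gene, was also low in replicate 2 alone, at 2.59 CPM against 21.4, 13.6 and 11.7 in the BFP libraries and 32.6 in replicate 4. NKX3-2 lost its call when the third BFP library was left out (adjusted p = 0.0543), INHBA without the second (0.0532), and BRINP3-DT without either (up to 0.0685).

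Across 23 gene lists (227 of 233 members tested), 16 members rose and 8 fell in replicate 2, with a median log2 fold change of -0.09, against -0.017 over all genes. In replicate 4, 80 rose and 37 fell, with a median of 0.31, against 0.009 over all genes. The shares of all genes called were 2.03% higher and 0.572% lower in replicate 2, and 22.7% and 21.9% in replicate 4. The falls in replicate 4 did not exceed that share. The counts of each list below stand beside the same shares.

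By count of calls, the gut and stomach epithelium and patterning list led in replicate 2. The lists and their members were chosen with earlier results of these data known, so this order is a description and not a test. Of its 14 members, 6 rose (TFF1, TFF2, TFF3, CLDN18, KRT20 and NKX6-3), NKX3-2 fell, and the median log2 fold change was 1.75. The trefoil factor genes encode small secreted peptides of gut mucus. TFF2 stood at 2.12, 1.84 and 2.54 CPM in the BFP libraries, 54 in replicate 2 and 21 in replicate 4, with a log2 fold change of 4.64 in replicate 2 (SE 0.39, adjusted p = 6.23e-06). TFF3 stood at 49.5, 58.1 and 65.4 CPM in the BFP libraries, 265 in replicate 2 and 129 in replicate 4. For both peptides the 2 ISL1 libraries were higher than all controls. CLDN18, a tight junction gene of stomach and lung, was high in replicate 2 only: 20.2, 25.7 and 37.7 CPM in the BFP libraries, 291 in replicate 2 and 15.5 in replicate 4. The intestinal regulator CDX2 stood at 81.2, 64.9 and 86 CPM in the BFP libraries, 136 in replicate 2 and 74.7 in replicate 4, and passed in neither. Of the 8 gut peptide hormone genes, 0 passed in replicate 2 (median -0.07) and 6 rose in replicate 4, among them GAST, the gastrin gene, from 7.02, 8.43 and 5.51 CPM to 1290, with 13.3 in replicate 2.

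Of 9 genes of enterochromaffin cells, the serotonin-making endocrine cells that arise in such cultures, 2 fell and 0 rose in replicate 2, and 6 fell and 2 rose in replicate 4. The 9 members summed to 4450, 5180 and 4480 CPM in the BFP libraries, 1730 in replicate 2 and 1720 in replicate 4, so both lay below every control and near the 1100 to 1740 of WT. DDC and LMX1A were the genes that fell in replicate 2, where the median log2 fold change was -1.49. The rises in replicate 4 were TAC1, a tachykinin gene, and SLC6A4, the serotonin transporter gene, which stood at 2.45, 1.91 and 1.38 CPM in the BFP libraries, 1.69 in replicate 2 and 13.1 in replicate 4. DDC, the decarboxylase of serotonin synthesis, stood at 808, 894 and 784 CPM in the BFP libraries, 265 in replicate 2 and 386 in replicate 4. LMX1A, a LIM-homeodomain factor of these cells, stood at 565, 597 and 496 CPM in the BFP libraries, 158 in replicate 2 and 34.4 in replicate 4. The libraries did not overlap with the controls at either gene. TPH1, the rate-limiting enzyme of serotonin synthesis, stood at 381, 495 and 475 CPM, then 160 in replicate 2 (adjusted p = 0.0524) and 22.5 in replicate 4 (adjusted p = 6.32e-06).

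Genes of hormone storage and exocytosis followed a similar order. Of 17 members, 2 fell in replicate 2, SYT13 among them, none rose, and the median was -0.94. Their sum went from 53100, 55300 and 49000 CPM in the BFP libraries to 28000 in replicate 2 and 28100 in replicate 4, mostly CHGA, which itself did not pass in replicate 2 (log2 fold change -0.95, SE 0.46, adjusted p = 0.375). SYT13, an atypical synaptotagmin, stood at 263, 243 and 215 CPM in the BFP libraries, 80.8 in replicate 2 and 52.2 in replicate 4. Among 13 endocrine transcription and signalling genes, INSM1 and DLL4 fell in replicate 2 and DLL1 rose. INSM1, a zinc finger factor of endocrine differentiation, stood at 2880, 3050 and 3090 CPM in the BFP libraries, 1280 in replicate 2 and 251 in replicate 4. The calls of INSM1, DLL1 and DLL4 in replicate 2 did not survive leaving out at least 1 of the BFP libraries, with adjusted p up to 0.0658, 0.112 and 0.0581.

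Few beta, alpha and delta cell genes passed in replicate 2; in replicate 4 their counts stand beside 22.7% of all genes called higher and 21.9% lower. Of 21 beta cell genes, SLC2A2 rose and NKX6-1 fell in replicate 2 (median -0.07), whereas 9 rose and 5 fell in replicate 4. SLC2A2 stood at 4.3, 1.97 and 1.81 CPM in the BFP libraries, 15.3 in replicate 2 and 12.9 in replicate 4, above the controls in both, although its call in replicate 2 was lost without the second or the third BFP library (adjusted p up to 0.098). NKX6-1, a homeodomain factor of beta cells, stood at 320, 302 and 357 CPM in the BFP libraries, 73.1 in replicate 2 and 23 in replicate 4. WT held 38.4 to 79.6 CPM, so replicate 2 lay in the WT range. G6PC2, a glucose-6-phosphatase of beta cells, stood at 1.29, 2.25 and 1.51 CPM in the BFP libraries, 1.22 in replicate 2 and 49 in replicate 4. Other members of the list went the other way in replicate 4. MAFA stood at 4.78, 2.97 and 4.61 CPM in the BFP libraries and 0.178 in replicate 4, against 0.659 to 1.53 in WT. PCSK1 stood at 309, 290 and 324 CPM in the BFP libraries and 18.6 in replicate 4, against 67.3 to 103 in WT. Of 16 alpha cell genes, 0 passed in replicate 2 (median -0.34), and 5 rose and 2 fell in replicate 4. Of 10 delta cell genes, HHEX rose in replicate 2 (median 0.51), and 3 rose and 1 fell in replicate 4 (median 0.13). The alpha and delta counts in replicate 4 are near the share of all genes called.

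Markers of other cell types moved with the libraries, and their part in the results was not tested. The 7 acinar genes summed to 24, 23.2 and 31.6 CPM in the BFP libraries, 272 in replicate 2 and 123 in replicate 4, of which PRSS1 made 265 and 112. CPA1, a defining acinar gene, stood at 3.01, 2.39 and 1.86 CPM in the BFP libraries and at 2.2 in replicate 2, whereas CELA3A, an elastase gene, was called higher in both (0.0831, 0.143 and 0.0874 CPM, then 0.776 and 0.771). The list's median in replicate 2 was 2.53 over the 5 members tested. The call of CELA3A in replicate 2 was lost without any 1 of the BFP libraries (adjusted p up to 0.11), and CTRC and PNLIP were too low to test. The 9 mesenchyme genes summed to 823 CPM in the first BFP library, 120 and 109 in the others, 129 in replicate 2 and 404 in replicate 4. The 5 duct genes summed to 559 to 679 CPM in the BFP libraries, 1090 in replicate 2 and 3120 in replicate 4, against 1270 to 1370 in WT. The liver genes summed to 3680 to 4250 CPM in the BFP libraries, 6570 in replicate 2 and 22000 in replicate 4, against 8490 to 16900 in WT. At both lists replicate 2 lay below all WT libraries and replicate 4 above them. In replicate 4 all 13 mitochondrially encoded protein genes rose, beside 0 in replicate 2. Of these calls, MT-ND2 was lost without BFP library 1 or 3 (adjusted p up to 0.0781) and MT-ND4 without library 1 (0.0569).

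**Figure D3:**
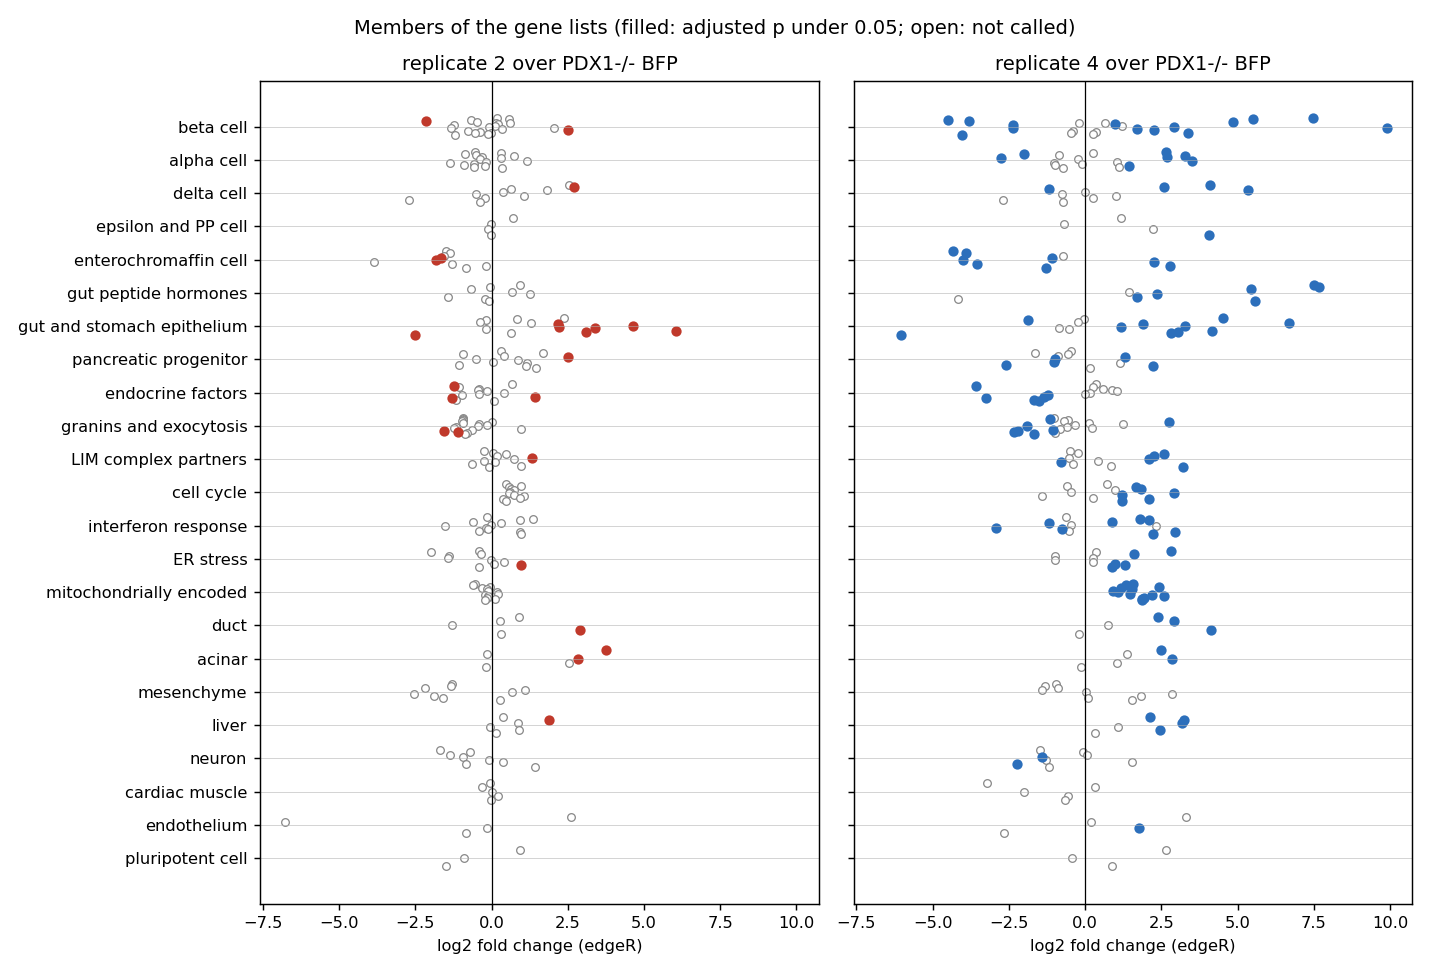
Log2 fold change over the PDX1-/- BFP libraries (horizontal axis) of each tested list member, by list on the vertical axis, in replicate 2 (left) and replicate 4 (right); filled points passed at an adjusted p under 0.05 and open points did not. In replicate 2 the 6 filled rises of gut and stomach epithelium stand out, and in replicate 4 all 13 mitochondrially encoded genes are filled and higher.

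Genes that responded to the ISL1 virus in other genotypes were chosen by contrasts that hold no PDX1-/- library. The PDX1-/- libraries still entered the fit of 8 groups, and so the filter, the scaling and the spread behind those calls. These lists are thus not fully independent of replicates 2 and 4. The PAX6-/- lists also rest in part on PAX6-/- ISL1 library 3, the library nearest to replicate 4, and were not rebuilt without it. The virus raised 7 genes in WT (0.027%), raised 65 (0.251%) and lowered 34 (0.131%) in ISL1-/-, and raised 44 (0.17%) and lowered 48 (0.185%) in PAX6-/- cells. Of these, replicate 2 was called in the same direction for 4 of 7, 26 of 65, 26 of 34, 31 of 44 and 28 of 48. The shares of all genes called in replicate 2 were 2.03% and 0.572%. ESAM, an endothelial adhesion molecule gene, was called the opposite way: it fell by 1.44 on the log2 scale in ISL1-/- cells and rose by 1.98 in replicate 2 (SE 0.26, adjusted p = 0.00033). The 4 genes of WT called in replicate 2 were VSIG1, NOX4, RARRES2 and CNMD.

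The 39 genes called in the same direction in both ISL1-/- and PAX6-/- cells, 18 higher and 21 lower, were read more closely. In replicate 2 all 18 of the first lay above, and all 21 of the second lay below, the 3 PDX1-/- BFP libraries, as did 33.6% and 33.8% of all genes. The median edgeR log2 fold change of the raised genes was 2.14 in ISL1-/- and 1.9 in PAX6-/- cells, and that of the lowered genes was -1.44 and -1.72. In replicate 2 the median log2 CPM differences were 2.08 and -1.77, against 0.01 over all genes. On these genes, kept because both other knockouts called them, replicate 2 moved in the same direction and by about the same size. On the wider lists, the 65 genes raised in ISL1-/- cells had median log2 fold changes of 2.16 there and 1.13 in replicate 2. The 34 lowered there had -1.44 and -1.76. For PAX6-/- cells the medians were 1.85 and 1.87 for the 44 raised genes, and -1.59 and -1.68 for the 48 lowered. NOX4, an NADPH oxidase gene, stood at 1.87, 2.89 and 2.16 CPM in the BFP libraries, 14.5 in replicate 2 and 7.88 in replicate 4. HHEX, a homeodomain factor of delta cells and early liver, stood at 6.52, 6.68 and 3.58 CPM in the BFP libraries, 36.1 in replicate 2 and 33.3 in replicate 4. Both libraries lay above the controls at NOX4 and HHEX, but WT BFP cells already held 6.46 and 7.35 CPM of NOX4 and 26.3 and 27.9 of HHEX. The genes with the smallest adjusted p elsewhere were not all called in replicate 2: SLC24A4 rose by 4.54 in ISL1-/- cells and had a log2 fold change of 0.33 in replicate 2 (adjusted p = 0.828), and RIPPLY3, NKAIN3 and UNC5C had 1.66, 0.82 and 0.73 (adjusted p = 0.0547, 0.151 and 0.301). RIPPLY3 passed under 5 other settings (adjusted p from 0.000108 to 0.0178) and NKAIN3 under 1 (0.0221). All 6 leading falls, NXPH4, SYT13, IL22RA1, AFF3, DDC and CHST2, were called lower in replicate 2.

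For replicate 4 the controls decide the reading of these genes. Over PDX1-/- BFP cells it showed medians of 1.81 for the raised and -2.22 for the lowered genes. Over WT BFP cells, the group it lay nearer to, the medians were 1.43 and -0.22. WT cells with ISL1, compared with those same WT BFP libraries, showed 1.5 and -0.36. Of the 18 raised genes 16 lay above both WT BFP libraries in replicate 4, and 11 of the 21 lowered genes lay below both, beside 43.6% and 43% of all genes. The raised genes were thus high in replicate 4 against either control, and the lowered genes had a median nearer to 0 against WT BFP cells than against PDX1-/- BFP cells. RARRES2, a chemerin gene, stood at 15.3 and 11.9 CPM in WT BFP, 83.5 and 102 in WT ISL1 and 71.3 in replicate 4. VSIG1 and NOX4 were nearer to the WT BFP values.

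**Figure D4:**
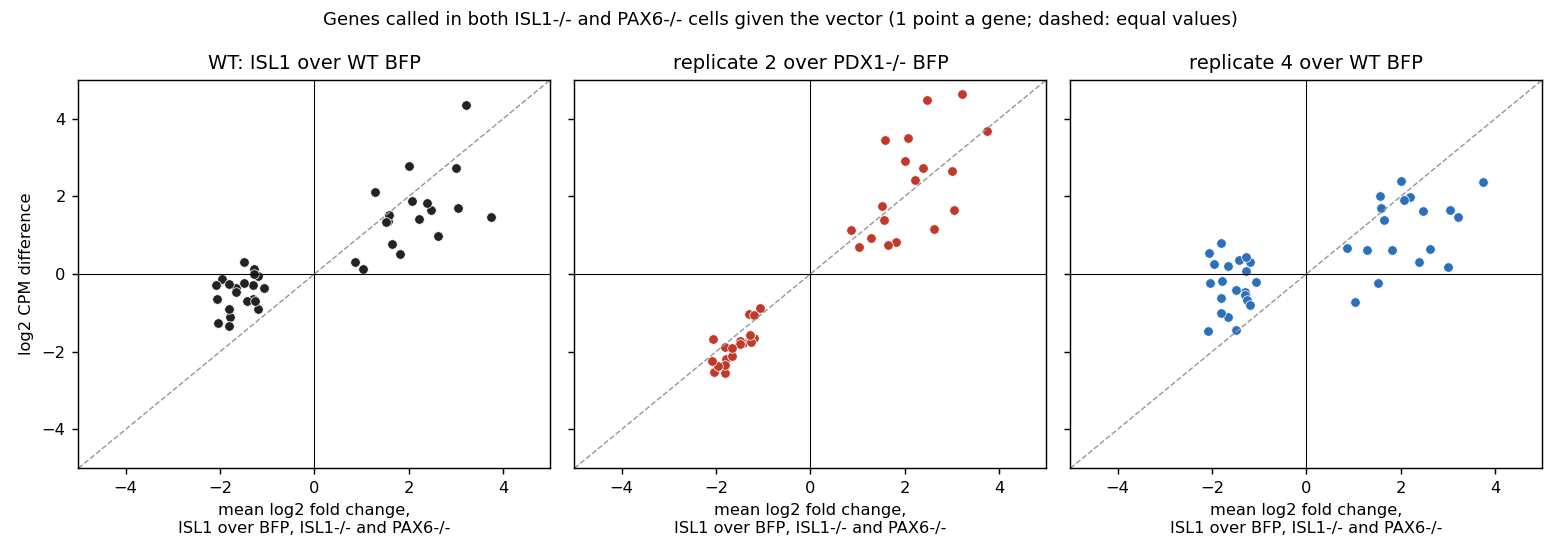
The 39 genes called in both ISL1-/- and PAX6-/- cells given the ISL1 virus; the horizontal axis is their mean log2 fold change there, and the vertical axis is the log2 CPM difference in WT (left), in replicate 2 over PDX1-/- BFP (middle) and in replicate 4 over WT BFP (right). Each point is 1 gene, and the dashed line marks equal values. The medians of raised and lowered genes are 2.08 and -1.77 in replicate 2, and 1.43 and -0.22 in replicate 4 over WT BFP.

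The change in replicate 2 was then tested against the mean change that the virus made in WT, ISL1-/- and PAX6-/- cells. It differed at 141 genes, higher at 135 (0.522%) and lower at 6 (0.0232%), and 1753 passed at an unadjusted p under 0.05. The count was 475 without PAX6-/- ISL1 library 3 and 79 without PDX1-/- BFP library 2 or 3. Leading genes were CD177, AOAH, CTSE, FER1L6, MMP1, SLC2A2, OR2I1P and GP2, with NEFL as the single eligible fall. GP2, a glycoprotein of pancreatic secretory granules, stood at 0.872, 0.804 and 0.94 CPM in the BFP libraries, 10.8 in replicate 2 and 0.889 in replicate 4. Its change in replicate 2 exceeded the mean elsewhere by 3.37 (SE 0.45, adjusted p = 0.00136). MMP1, a collagenase gene, stood at 6.09, 5.93 and 13.9 CPM in the BFP libraries, 67.4 in replicate 2 and 13.2 in replicate 4. GP2 and MMP1 were high in replicate 2 only, so no second library of the group shows the difference. FER1L6 likewise stood at 38.7 CPM in replicate 2 and 1.54 in replicate 4, against 0.852, 0.822 and 1.51 in the BFP libraries. AOAH stood at 23.5 CPM in replicate 2 and 3.79 in replicate 4, against 1.04, 1.63 and 2.23. Within the gut and stomach list TFF2, CLDN18 and KRT20 also exceeded the mean elsewhere. At VSIG1 the difference was 1.04 (SE 0.37, adjusted p = 0.453), and at HHEX it was 0.48 (adjusted p = 0.985).

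Tested directly, replicate 4 differed from replicate 2 at 8797 genes, higher at 3978 (15.4%) and lower at 4819 (18.6%), which compares these libraries and not conditions. Among genes with the largest differences, GIP, an intestinal hormone gene, stood at 0.511 CPM in replicate 2 and 108 in replicate 4, and AREG, an epidermal growth factor receptor ligand gene, at 1.73 and 344. TGFB3, a growth factor gene, went the other way, with 88.6 CPM in replicate 2 and 2.64 in replicate 4, against 5.59, 6.09 and 11.1 in the BFP libraries.

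Set against WT cells with the same virus, replicate 4 was higher at 4276 genes (16.5%) and lower at 4763 (18.4%), so its resemblance to WT was partial. Without the first WT ISL1 library the split was 994 higher and 2091 lower. Among the rises, FABP1, a fatty acid binding protein gene, stood at 547 CPM in replicate 4, 50 and 54.6 in WT ISL1, and 145 and 172 in WT BFP. LGALS4, a galectin gene of gut epithelium, stood at 95 CPM, 7.5 and 8.44, and 29.3 and 25.9, in the same order. Replicate 4 was above all WT libraries at both. Among the falls, SLC4A4, a bicarbonate cotransporter gene, stood at 4.62 CPM in replicate 4, 65 and 65.3 in WT ISL1 and 6.15 and 5.83 in WT BFP. PRDM14 showed the same order, with 2.73 CPM in replicate 4, 58.4 and 59.2 in WT ISL1 and 3.23 and 4.2 in WT BFP. At these 2 genes replicate 4 lay with cells that had received BFP alone, whereas replicate 2 held 46.9 CPM of SLC4A4 and 39.1 of PRDM14, each above all 3 of its controls. The other leading falls, KCNA6, COL14A1, RIMS4, ADGRL2, ADAMTS18 and TLR4, lay below both WT BFP libraries in replicate 4. KCNA6 stood at 1.07 CPM there against 20 and 18.1 in WT BFP, and ADGRL2 at 12 against 61.4 and 51.6.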

How the data were processed

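Per the labels' protocols, RNA of sorted cells was amplified with SMART-Seq v4 and read on a NovaSeq X after KAPA EvoPrep library construction. The authors deposited raw counts per gene for 21 libraries. The submitters' processing notes name STAR 2.7.11b, featureCounts 2.1.1 and GRCh38; the annotation release, the strand setting and the treatment of reads with several matches are not given in the sources used here. Of 62700 gene entries, 62699 were used; ANK2, whose record is split by line breaks, was left out.

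Counts were tested with edgeR 4.0.16 (quasi-likelihood, TMM, a minimum count of 10 in filterByExpr, R 4.3.3) on all 21 libraries. Replicates 2 and 4 shared a coefficient in the fit of 8 groups and had their own in the fit of 9 coefficients (12 residual degrees of freedom). Benjamini-Hochberg adjustment ran over 25884 genes, with a threshold of 0.05. The script was tested on simulated data. DESeq2 1.42.0, limma 3.58.1 (voom), other filters, blocks and left-out libraries were alternatives. Distances used log2 CPM with a prior count of 2.

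Named genes were the hormone and targeted genes, members of the gene lists, and up to 8 rises and 8 falls per comparison whose higher group averaged 10 CPM or more, without overlap between the libraries compared (not asked of the contrast with other genotypes), plus 6 and 6 for the virus elsewhere; other names were chosen after their values were seen. The members and lists were chosen with earlier results of these data known. Results of 1 list member are not reported here. Promoter windows are from RefSeq, GRCh38.p14.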

Additional observations from a re-analysis of the deposited data

Results flagged for a closer look

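The change in replicate 2 differed from the mean change made by the virus in WT, ISL1-/- and PAX6-/- cells at 141 genes by the edgeR contrast, and the leading genes are listed with the size of that difference on the log2 scale. The difference was 4.62 for CD177, 4.13 for AOAH, 3.95 for CTSE, 3.89 for FER1L6 and 3.73 for MMP1. It was 3.62 for SLC2A2, 3.46 for OR2I1P, 3.37 for GP2 and -1.69 for NEFL. SLC2A2, the glucose transporter gene, had a log2 fold change of -2.02 with the virus in WT cells, which was not called, and 2.51 in replicate 2. NEFL, a neurofilament gene, had 1.34 in WT and 1.16 in ISL1-/- cells and -0.56 in replicate 2. Each difference rests on 1 library given the virus. FER1L6, OR2I1P and NEFL missed the threshold when the second PDX1-/- BFP library was left out, with adjusted p up to 0.0817, 0.0824 and 0.0824 over all alternatives.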

How the results depend on the processing

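Counts of calls for replicate 2 varied more with the settings than those for replicate 4 over BFP. The count for both libraries as 1 group, 3240, became 4891 with DESeq2, 22 (22 higher, 0 lower) with voom sample weights, 5949 without PAX6-/- ISL1 library 3, and 0 in edgeR when only the PDX1-/- libraries entered, where 3242 genes passed at an unadjusted p under 0.05; leaving out single libraries gave 665 to 11519. The count for replicate 2, 674, became 1255 with DESeq2 and 2581 with voom weights (58.5% higher). It became 2076 with only replicate 2 and the 3 PDX1-/- BFP libraries, and 2482 without PAX6-/- ISL1 library 3 (57.9% higher). Without single BFP libraries it was 379 to 460, the lowest without library 2, with 436 without library 3. The count of 141 genes at which replicate 2 differed from the other genotypes became 301 with DESeq2, 228 without the filter on low counts, 481 with voom weights and 475 without PAX6-/- ISL1 library 3; leaving out single libraries gave 79 to 475, with 88, 79 and 79 without PDX1-/- BFP library 1, 2 and 3. Replicate 4 over BFP gave 10580 to 14135 calls (9887 to 10849 without single libraries), and replicate 4 over replicate 2 gave 7691 to 12574. Replicate 4 over WT ISL1 gave 7984 to 12418, and 3085 to 6596 without single WT ISL1 libraries, the lowest without library 1. The cause of these shifts was not tested.

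In a replicate block by library-name number, replicate 4 is alone with its number, so the contrast named for both libraries rests on replicate 2: it gave 541 calls (428 higher, 113 lower) and -0.1 for DNAH8 (adjusted p = 0.985). The same block gave 523 for replicate 2 and 141 for the contrast with other genotypes, while contrasts of replicate 4 could not be fitted. A replicate block by title number gave 2881 for both libraries, 578 for replicate 2, 11764 for replicate 4, 7691 between the replicates, 112 for the contrast with other genotypes and 8931 for replicate 4 over WT ISL1. Deviations of same-numbered libraries by title, each from its group mean, correlated at -0.07 and 0.21 over 2 pairs. The PDX1-/- ISL1 group holds 2 libraries, so their deviations are equal and opposite. These correlations therefore cannot show whether libraries with the same title number were paired. Pairing by library-name number was not checked. Replicate 4 over replicate 2 has no residual degrees of freedom among those libraries alone and was not run so.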

Other observations

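Some further changes in replicate 2 were noticed after the values were seen. IGF2, an imprinted growth factor gene, stood at 70.9, 54.8 and 57.9 CPM in the PDX1-/- BFP libraries, 328 in replicate 2 and 259 in replicate 4. H19, the imprinted noncoding RNA gene beside it, stood at 13.3, 7.97 and 9.11 CPM, then 52.3 and 59.5. Both genes were above all controls in both ISL1 libraries, with log2 fold changes in replicate 2 of 2.42 (SE 0.19, adjusted p = 3.77e-06) and 2.37 (SE 0.3, adjusted p = 0.000187).

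A further 3 genes were picked because they were high in both libraries, and no list or test stands behind them as a group. CBLIF, the gastric intrinsic factor gene, stood at 8.1, 12.4 and 14.7 CPM in the BFP libraries, 75.2 in replicate 2 and 44.4 in replicate 4. AGR2, a disulfide isomerase of mucus-making cells, stood at 43.4, 40.6 and 43.4 CPM, then 801 and 1000. Its level was 442 and 625 CPM in WT with ISL1 and 256 and 99.3 in WT with BFP. LYZ, the lysozyme gene, stood at 35.6, 45.9 and 59.3 CPM in the PDX1-/- BFP libraries, 277 in replicate 2 and 557 in replicate 4. Among potassium channel genes, KCNJ3 fell from 131, 158 and 164 CPM to 34.4 in replicate 2 (log2 fold change -2.13, SE 0.34, adjusted p = 0.0015) and 7.94 in replicate 4, where WT held 12.2 to 18 CPM.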
